A study of Homo sapiens with 3 samples.

Results

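ANGPTL4 and 6 further genes of lipid handling that belong to, or are controlled by, the peroxisome proliferator-activated receptors (PPARs) were followed across 3 lines of one human hepatocellular carcinoma (HCC). The genes, chosen by name, were ANGPTL4, PDK4, PLIN2, CPT1A, FABP1, LPL and PPARA, which makes 7 of the 16149 genes listed in at least 1 library. Of these 7, FABP1 and LPL were listed in no library. The other 5 had a mean of at least 1 RPKM (reads scaled to the length of the gene and to the total of the library) over the 3 libraries, as did 11370 genes in all.

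Messenger RNA was sequenced from cultured cells, with 1 library for each line. The parent is HCCLM3, a human HCC line. The study calls it HCCLM3-R, a derivative that carries red fluorescent protein. The labels class its metastasis as low, whereas the study's methods give it a high potential for metastasis. Subclone 1 is labelled as more metastatic to the lung, and subclone 2 as metastatic to both the lung and the celiac lymph node. By the study's methods, each subclone was grown from a single cell, so that each stands for 1 clone. The cell came from a line taken from a lung or lymph node metastasis that the parent had formed in nude mice. The study describes several such clones, and neither it nor the labels say which of them subclone 1 and subclone 2 are. No drug or other agent is named for any of the 3 cultures.

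PPARs are nuclear receptors that bind fatty acids and their derivatives and, paired with a retinoid X receptor (RXR), switch on genes by which a cell takes up, stores and burns fat. PPAR-alpha, the product of PPARA, is the form best known from the liver in fasting, and its classical targets include the genes for ANGPTL4, PDK4, CPT1A, PLIN2 and FABP1. ANGPTL4 is a secreted protein that blocks lipoprotein lipase, the enzyme encoded by LPL that frees fatty acids from circulating triglyceride, and it is also induced by low oxygen.

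The totals recovered from the RPKM were 4488825 (parent), 4609696 (subclone 1) and 4725150 (subclone 2) reads. The epithelial keratins KRT8 and KRT18 were among the hepatocyte markers with the highest levels, at 953 to 1742 RPKM in all 3 libraries, and 11 of 11 hepatocyte markers were listed in at least 1 library. APOA1 and SERPINA1 were among the 3 under a mean of 1 RPKM. Of the other 8, 4 were at least 2-fold above the parent in subclone 1 and 3 in subclone 2, with median log2 ratios of 1.25 and 0.62. Transferrin (TF) was high in subclone 1, with 30.3 RPKM against 5.71 in the parent and 5.88 in subclone 2. Albumin (ALB) stood at 2.46 RPKM in the parent against 49.5 in subclone 1 and 68.8 in subclone 2. Over the 11370 genes, the median log2 ratio was 0.0043 in subclone 1 over the parent and 0.037 in subclone 2 over it, and 0.034 between subclone 2 and subclone 1. All ratios on the log2 scale were taken after adding 0.1 RPKM, which understates the ratio of a low gene. With 1 library of a line, no difference between lines could be tested: the 95% intervals below are exact intervals on reads and cover counting error only. In a bulk library, more cells that express a gene and more RNA in each cell cannot be told apart.

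ANGPTL4, PDK4 and PPARA were each more than 2-fold higher in both subclones than in the parent, whereas PLIN2 and CPT1A differed by less than 1.5-fold, and the 2 subclones had close levels of all 5 genes. For ANGPTL4 (Entrez gene 51129; 7 exons on the plus strand, chr19:8363289-8374373 in GRCh38), the level was 10.3 RPKM from 91 reads in the parent (95% interval 8.30 to 12.7), 24.4 RPKM from 221 reads in subclone 1 (21.3 to 27.8) and 25.5 RPKM from 237 reads in subclone 2 (22.4 to 28.96). The parent was thus the low library, and its interval did not overlap those of the subclones. Subclone 1 exceeded the parent by 2.36-fold (1.84 to 3.05) and subclone 2 by 2.47-fold (1.94 to 3.19), while the ratio of the subclones, 1.05, had an interval from 0.867 to 1.26. Among the 11370 genes, these folds stood at the 96.6 and 96.7 percentiles of all ratios over the parent. Its level in RPKM stood at the 48.8 percentile of the genes in the parent and at the 72.9 and 73.3 percentiles in subclone 1 and subclone 2.

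PPARA (Entrez gene 5465; 8 exons on the plus strand, chr22:46150521-46243756) encodes the receptor itself. Its level was 2.15 RPKM from 97 reads in the parent (1.74 to 2.62), 5.48 RPKM from 254 reads in subclone 1 (4.83 to 6.20) and 6.04 RPKM from 287 reads in subclone 2 (5.37 to 6.79). The parent was again below both subclones with no overlap of intervals, by 2.55-fold (2.01 to 3.26) against subclone 1 and 2.81-fold (2.23 to 3.58) against subclone 2. Between the subclones the fold was 1.10 (0.928 to 1.31). On the log2 scale PPARA and ANGPTL4 had similar differences, 1.31 and 1.23 in subclone 1 and 1.45 and 1.30 in subclone 2, each over the parent.

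PDK4 (Entrez gene 5166; 11 exons on the minus strand, chr7:95583499-95596491) encodes a kinase that shuts off the pyruvate dehydrogenase complex and so spares glucose while fat is burned. It had the lowest level of the listed genes, with 0.42 RPKM from 7 reads in the parent (0.169 to 0.866), 2.05 RPKM from 35 reads in subclone 1 (1.43 to 2.85) and 2.22 RPKM from 39 reads in subclone 2 (1.58 to 3.04). Its folds over the parent were the largest of the 5 listed genes, 4.87 in subclone 1 and 5.29 in subclone 2, and the least precise, with intervals from 2.13 to 13.0 and from 2.34 to 14.0. The wide limits go with the 7 reads of the parent. The subclones differed by 1.09-fold (0.671 to 1.77).

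PLIN2 (Entrez gene 123; 8 exons on the minus strand, chr9:19108375-19149290) encodes the main coat protein of lipid droplets in non-fat cells. Its level was the highest of the listed genes, with 63.6 RPKM from 604 reads in the parent (58.6 to 68.9), 82.1 RPKM from 801 reads in subclone 1 (76.5 to 88.0) and 89.4 RPKM from 894 reads in subclone 2 (83.7 to 95.5). These values put PLIN2 at the 90.2 to 93.4 percentiles of the genes in the 3 libraries. The parent lay below both subclones, by 1.29-fold (1.16 to 1.44) and 1.41-fold (1.27 to 1.56), differences larger than counting error but under the 2-fold threshold, at the 79.8 and 83.9 percentiles of all ratios.

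CPT1A (Entrez gene 1374; 19 exons on the minus strand, chr11:68754620-68844410) encodes the enzyme that commits long-chain fatty acids to entry into mitochondria. The level was 24.7 RPKM from 292 reads in the parent (22.0 to 27.7), 28.4 RPKM from 344 reads in subclone 1 (25.5 to 31.5) and 30.0 RPKM from 373 reads in subclone 2 (27.1 to 33.2). The intervals of neighbouring libraries overlapped. The fold was 1.15 for subclone 1 over the parent, with an interval from 0.979 to 1.35 that includes no difference, and 1.21 for subclone 2 (1.04 to 1.42). The RPKM of CPT1A fit a gene length of 2630 bases but also one of 5260 bases with 584, 688 and 746 reads. With the longer length, the interval of subclone 1 over the parent, 1.03 to 1.28, would exclude 1. That length is near the 5232 bases of the principal transcript, and the shorter one is near another transcript of 2635 bases.

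**Figure D1:**
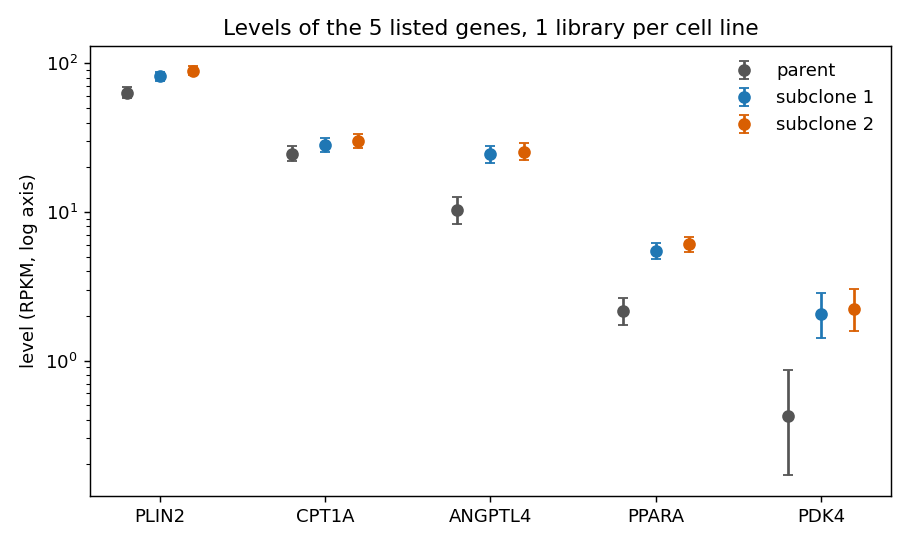
Level of the 5 listed genes in RPKM on a log axis, 1 point for each of the 3 libraries, with bars for the exact 95% counting interval. ANGPTL4, PPARA and PDK4 lie lower in the parent than in either subclone with no overlap of bars, and in each library PLIN2 is highest and PDK4 lowest.

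The order of the levels per length was the same in the 3 libraries: PLIN2, then CPT1A, ANGPTL4, PPARA and PDK4. In the parent every neighbour in this order was apart by more than counting error, with CPT1A 2.40-fold above ANGPTL4. In the subclones ANGPTL4 came within counting error of CPT1A, which was 1.16-fold above it in subclone 1 and 1.18-fold in subclone 2. The gap of PPARA over PDK4 narrowed from 5.12-fold in the parent to 2.68-fold in subclone 1 and 2.72-fold in subclone 2.

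Against the parent, 3 of the 7 genes (ANGPTL4, PDK4 and PPARA) passed 2-fold on the higher side in subclone 1 and 0 on the lower side, where 4.9% of the 11370 genes were higher and 1.82% lower by that fold. For subclone 2 over the parent the counts were the same 3 genes higher and 0 lower, against 5.33% and 2.16% of the genes. For subclone 2 over subclone 1 they were 0 and 0, against 1.42% and 1.39%. PDK4 passed the mean of 1 RPKM only through the subclones, and both comparisons with the parent share the parent library, so that the 2 counts of 3 are not separate evidence.

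**Figure D2:**
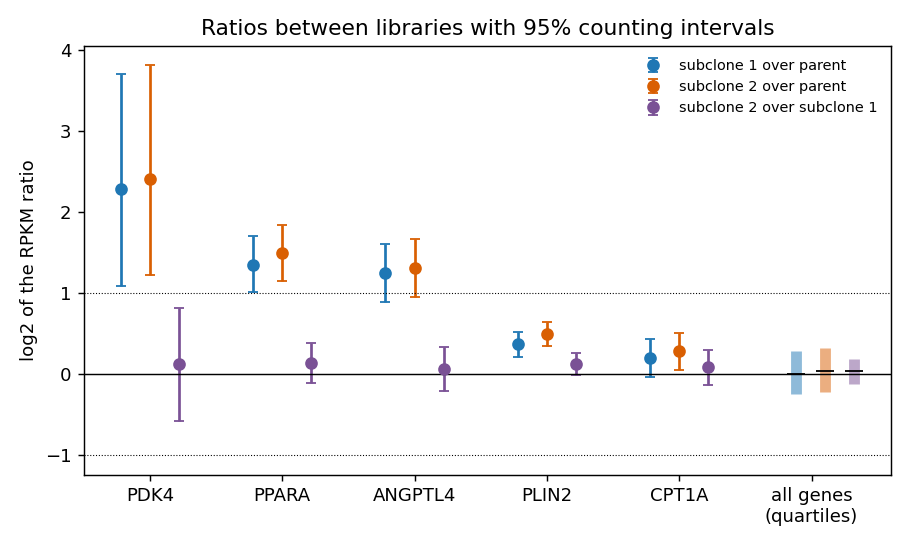
Log2 of the RPKM ratio, without a pseudocount, of the 5 listed genes in the 3 comparisons of libraries, with bars for the exact 95% counting interval, dotted lines at 2-fold and, at the right, the quartiles and median of all 11370 genes. The bars of PDK4, PPARA and ANGPTL4 over the parent lie above 0 in both subclones, and the bars between the subclones include 0 for all 5 genes.

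FABP1 (Entrez gene 2168; chr2:88122982-88128116, minus strand, 4 exons) encodes the fatty acid carrier of liver cytoplasm and is a textbook PPAR-alpha target of hepatocytes. LPL (Entrez gene 4023; chr8:19901717-19967259, plus strand, 10 exons) encodes the lipase that ANGPTL4 inhibits. Neither was listed in any of the 3 libraries. A count of 0 allows up to 3 reads, which for the 555 bases of the principal FABP1 transcript would be 1.20 RPKM in the parental cells, 1.17 in subclone 1 and 1.14 in subclone 2. For the 3847 bases of LPL it would be 0.174, 0.169 and 0.165 RPKM, so that the limit for LPL is lower than the level of PDK4 in the parent.

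The other genes of each family were read alongside, to see whether the member was the main form in these cells. PPARA was a minor PPAR: PPARG, the receptor best known from fat cells, had 82.7 RPKM for the parental line, 65.3 for subclone 1 and 80.6 for subclone 2, and PPARD, the widely expressed form, had 5.04, 7.17 and 7.21. PPARA made up 2.39% of the summed RPKM of the 3 PPAR genes in parent cells, 7.03% in subclone 1 and 6.44% in subclone 2. PPARG was lower in subclone 1 than in the parent, at 0.790 times its level (0.707 to 0.883), and in subclone 2 it was within counting error, at 0.975 times (0.879 to 1.08). PPARD was 1.42-fold higher in subclone 1 (1.07 to 1.89) and 1.43-fold higher in subclone 2 (1.08 to 1.90).

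Of the 12 other receptors and co-regulators of the list, 10 were listed, 9 had a mean of at least 1 RPKM, and 0 were 2-fold higher or lower than in the parent in either subclone. Their median log2 ratio was -0.18 in subclone 1 and -0.03 in subclone 2. RXRA, the partner of PPARs in liver, had 20.8 RPKM in parent cells, 30.5 in subclone 1 and 28.1 in subclone 2, which was 1.46-fold (1.31 to 1.64) and 1.35-fold (1.20 to 1.51) higher. RXRG and the coactivator gene PPARGC1A were not listed. LPIN1, a coactivator and phosphatidate phosphatase gene, was lower in both subclones, at 0.551 times (0.377 to 0.798) and 0.549 times its level in the parent.

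PDK4 was also a minor form of its family in the parent, where it held 3.26% of the summed RPKM of the 4 pyruvate dehydrogenase kinases, against 11.3% in subclone 1 and 13.5% in subclone 2. PDK1, the form known from hypoxia, was the most abundant, with 8.37 RPKM in the parental cells, 9.29 in subclone 1 and 7.95 in subclone 2. PDK2 had 2.88, 5.20 and 4.99 RPKM and was 1.81-fold (1.18 to 2.81) and 1.74-fold (1.13 to 2.70) higher than in the parent, and PDK3 had 1.22, 1.51 and 1.32 RPKM. The 10 genes of the complex itself, of its phosphatases and of the pyruvate carrier were all above a mean of 1 RPKM, and 0 of the 10 passed 2-fold over the parent on the log2 scale with 0.1 RPKM added. Nearest to it was PDPR, a regulator of the phosphatase, whose plain ratio of RPKM in subclone 1 over the parent was 2.06 (1.42 to 3.04, from 91 and 43 reads). Their median log2 ratios were -0.06 in subclone 1 and 0.04 in subclone 2, and DLD was the most abundant with a mean of 74.3 RPKM.

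PLIN2 held 60.0% of the summed RPKM of the 5 perilipins in parent cells, 58.6% in subclone 1 and 59.9% in subclone 2. PLIN3, a coat protein of young droplets, had a like pattern, with 41.4 RPKM in the parent and 56.5 in each subclone, 1.37-fold (1.21 to 1.55) and 1.36-fold higher. PLIN4 was low, at 0.877 RPKM in the parent (25 reads), 1.37 in subclone 1 (40 reads) and 3.20 in subclone 2 (96 reads), and the high library was subclone 2, 3.65-fold over the parent (2.33 to 5.91) and 2.34-fold over subclone 1 (1.60 to 3.48). PLIN1, the fat cell form, had 1 read in the parent and none in the subclones.

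CPT1A was nearly the sole carnitine palmitoyltransferase 1, with 99.7% of the summed RPKM of the 3 genes in parent cells, 98.0% in subclone 1 and 98.6% in subclone 2. ANGPTL4 held 26.4% of the summed RPKM of the 8 angiopoietin-like genes in parent cells, 47.3% in subclone 1 and 39.8% in subclone 2. The other abundant one was ANGPTL2, with 28.6 RPKM for the parental line, 26.7 for subclone 1 and 38.0 for subclone 2. It stood above ANGPTL4 in every library, but in subclone 1 the intervals overlapped (23.3 to 30.5 against 21.3 to 27.8 RPKM). In subclone 2 ANGPTL2 was 1.33-fold above the parent (1.12 to 1.59). ANGPTL1, ANGPTL5 and ANGPTL6 had at most 3 reads in a library, and ANGPTL7 and ANGPTL8 were not listed.

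Among the fatty acid binding proteins, of which FABP1 was not listed, FABP5 was the most abundant and lower in the subclones, with 61.4 RPKM in parent cells, 33.8 in subclone 1 and 30.7 in subclone 2. This was 0.550 times (0.435 to 0.694) and 0.50 times (0.393 to 0.634) the level in the parent. FABP5 has near-identical pseudogene copies, which could share its reads, so its level is uncertain. FABP3 had 3.25, 4.35 and 3.67 RPKM, FABP2 and FABP6 had at most 3 reads in a library, and FABP4, FABP7, FABP9 and FABP12 were not listed.

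**Figure D3:**
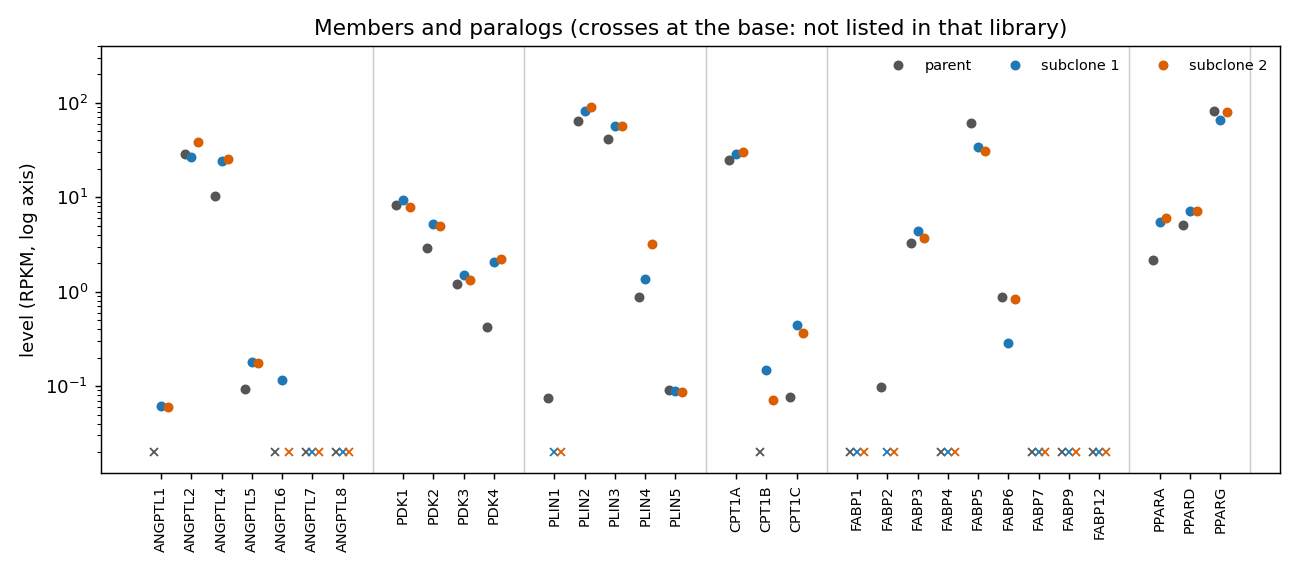
Level in RPKM on a log axis of the 7 genes other than LPL and of paralogs of theirs, 1 point for each of the 3 libraries, with crosses at the base where a gene was not listed. PPARG lies above PPARA, PDK1 above PDK4 and ANGPTL2 above ANGPTL4 in every library, and PLIN2 and CPT1A are the highest of their families.

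The stretch of 250 bases before the start of transcription is shown for the 3 genes that were more than 2-fold higher in both subclones and for PLIN2, their abundant companion, so that their promoters can be read side by side. The sequences are RefSeq's, in GRCh38.p14, 5′ to 3′ on the strand of the gene. Capitals mark the core of a hypoxia response element (ACGTG or GCGTG on either strand). ANGPTL4 is on the plus strand of chr19:8363905-8364154, PDK4 on the minus strand of chr7:95596517-95596766, PPARA (the upstream of its 2 starts in the table) on the plus strand of chr22:46150276-46150525 and PLIN2 on the minus strand of chr9:19127493-19127742.
ANGPTL4: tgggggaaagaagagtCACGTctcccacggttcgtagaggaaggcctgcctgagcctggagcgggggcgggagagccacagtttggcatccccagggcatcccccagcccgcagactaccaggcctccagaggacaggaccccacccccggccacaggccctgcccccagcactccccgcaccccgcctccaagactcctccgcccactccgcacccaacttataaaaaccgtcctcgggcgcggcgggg
PDK4: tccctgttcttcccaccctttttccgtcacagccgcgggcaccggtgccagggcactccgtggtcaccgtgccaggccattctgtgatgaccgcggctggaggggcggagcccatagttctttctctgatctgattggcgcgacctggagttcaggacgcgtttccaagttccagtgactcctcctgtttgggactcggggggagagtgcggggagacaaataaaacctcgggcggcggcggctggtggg
PPARA: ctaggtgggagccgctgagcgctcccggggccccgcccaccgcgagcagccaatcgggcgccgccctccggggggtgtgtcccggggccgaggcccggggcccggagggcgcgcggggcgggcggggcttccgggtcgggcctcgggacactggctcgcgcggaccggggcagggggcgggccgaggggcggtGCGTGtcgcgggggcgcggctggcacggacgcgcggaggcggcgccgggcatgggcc
PLIN2: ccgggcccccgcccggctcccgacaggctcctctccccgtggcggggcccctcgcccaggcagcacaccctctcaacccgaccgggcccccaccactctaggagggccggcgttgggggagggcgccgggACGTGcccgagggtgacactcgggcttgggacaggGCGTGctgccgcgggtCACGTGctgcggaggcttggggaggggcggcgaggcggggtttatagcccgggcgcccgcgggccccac

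The hypoxia core occurred once in the ANGPTL4 window, 234 bases before the start, once in the window of PPARA shown, 57 bases before it, but 0 times in that of its other start, 4 times in that of PLIN2 (2 of them overlapping on opposite strands) and 0 times in that of PDK4. Of all 35116 promoter windows of this length, 43.2% held it. The direct repeat to which PPAR and RXR bind was searched on both strands as 2 copies of AGGTCA in the same direction with 1 base between. It had no match in the windows of the 6 members searched, and 0.0171% of all windows held one. The promoter of LPL was left out of the search. A single half-site (AGGTCA), which 12.1% of windows held, occurred in the window of FABP1. A TATA box (TATAAA, 10.7% of windows) lay 29 bases before the start of ANGPTL4, and on the opposite strand at the same distance in PLIN2. The share of G and C was 68.8% for ANGPTL4, 62.8% for PDK4, 84.4% for PPARA and 78.0% for PLIN2, against a median of 58.0% over all windows. A match describes the letters, not binding, and regulatory sites may lie outside so short a window.

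A list of 36 other known PPAR targets was read for comparison, 33 of them listed and 27 with a mean of at least 1 RPKM. In subclone 1, 5 of the 27 exceeded the parent by 2-fold or more and 1 was lower, with a median log2 ratio of 0.30. Of all 11370 genes, 4.9% were higher and 1.82% lower by that fold. In subclone 2, 6 were higher and 1 lower, with a median of 0.23, against 5.33% and 2.16% of all genes. PLIN4, among these 6, had 0.877 RPKM in the parent and passed the mean of 1 RPKM only through the subclones. In both subclones, the list leaned to the higher side of the all-gene medians of 0.0043 and 0.037, but most of its genes differed by less than 2-fold. The list was written with earlier results of these data known, so this lean is a description only. The counting interval of the ratio lay above 1 for 10 genes and below 1 for 3 in subclone 1, and above 1 for 12 and below 1 for 4 in subclone 2. Over all 11126 genes with recovered reads, it lay above 1 for 20% and below 1 for 19% in subclone 1, and for 22.8% and 17.8% in subclone 2.

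The targets that were higher in both subclones were TXNIP, VNN1, CREB3L3 and G0S2. TXNIP, which encodes a thioredoxin inhibitor that also limits glucose uptake, had 1.96 RPKM in the parental cells, 8.52 in subclone 1 and 15.3 in subclone 2, a fold over the parent of 4.34 (2.82 to 6.93) and 7.78 (5.17 to 12.2). VNN1, a pantetheinase, had 19.4, 52.0 and 115 RPKM, a fold of 2.69 (2.25 to 3.23) and 5.93 (5.03 to 7.03). CREB3L3, a liver transcription factor that works with PPAR-alpha in fasting, had 9.48, 30.6 and 48.0 RPKM, a fold of 3.23 (2.60 to 4.04) and 5.06 (4.12 to 6.26). These 3 genes differed from the 5 listed members between the subclones: subclone 2 exceeded subclone 1 by 1.79-fold (1.42 to 2.27) for TXNIP, 2.21-fold (1.98 to 2.47) for VNN1 and 1.57-fold (1.37 to 1.79) for CREB3L3. G0S2, an inhibitor of triglyceride lipase, was like ANGPTL4 in level and pattern, with 10.3 RPKM for the parental line, 24.4 for subclone 1 and 26.8 for subclone 2, a fold of 2.38 (1.67 to 3.45) and 2.62 (1.85 to 3.77).

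Other targets went apart. CD36, a fatty acid transporter, was high in subclone 1 alone, with 3.39 RPKM in parent cells, 7.66 in subclone 1 and 3.85 in subclone 2, where subclone 2 was 0.502 times subclone 1 (0.383 to 0.656). ACSL1, which activates long-chain fatty acids and is itself a PPAR-alpha target, was lower in both subclones, with 38.0, 18.4 and 18.6 RPKM, or 0.485 times (0.424 to 0.555) and 0.490 times (0.428 to 0.559) the parent. ACOT2 had 1.89, 3.19 and 4.19 RPKM, with 15 reads in the parent, and shares much of its sequence with ACOT1, so its value is uncertain. The most abundant target, IMPA2, had 93.3, 109 and 107.5 RPKM.

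**Figure D4:**
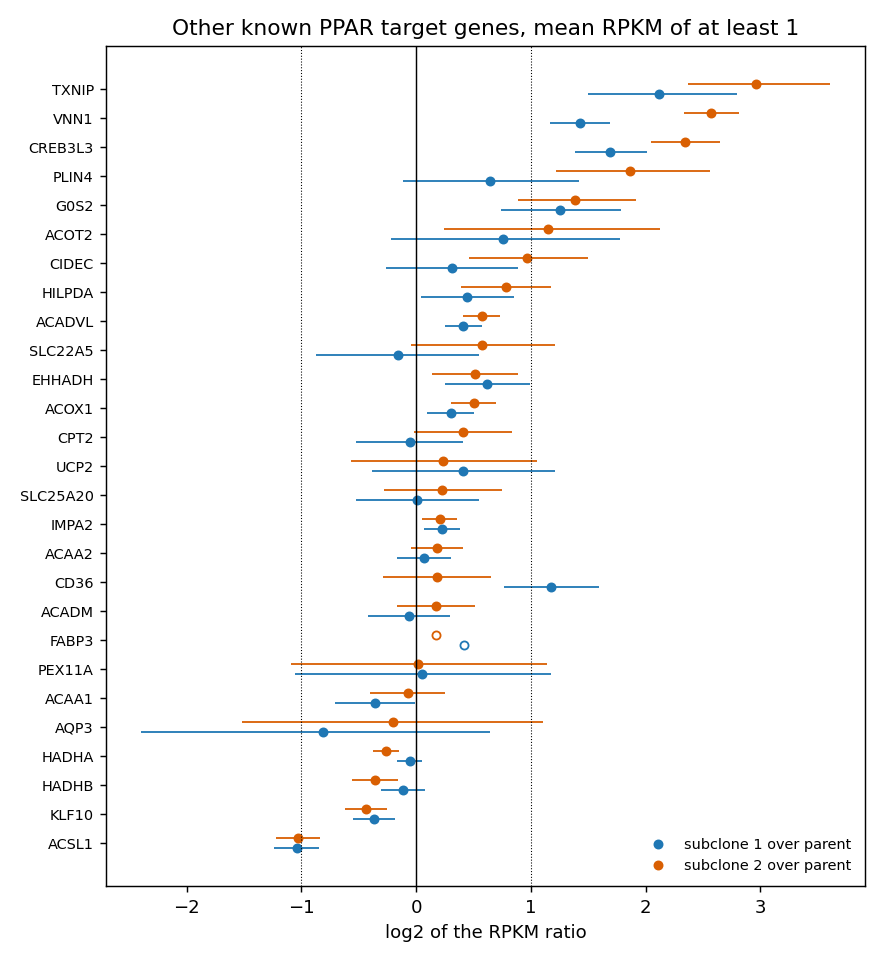
Log2 of the RPKM ratio over the parent, without a pseudocount, of the 27 other PPAR targets with a mean of at least 1 RPKM, with 1 point for each subclone, lines for the exact 95% counting interval (open points where reads were not recovered) and dotted lines at 2-fold. TXNIP, VNN1, CREB3L3 and G0S2 lie past 2-fold in both subclones, ACSL1 lies below on the other side, and CD36 passes it in subclone 1 only.

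The genes that break down the droplets PLIN2 coats were read next. Of 14 genes of droplet turnover, 11 had a mean of at least 1 RPKM, with a median log2 ratio over the parent of 0.37 in subclone 1 and 0.52 in subclone 2. PNPLA2, the first lipase of stored triglyceride, exceeded the parent by 2.14-fold (1.70 to 2.71) and 2.66-fold (2.13 to 3.34), with 10.03 RPKM in the parental cells, 21.5 in subclone 1 and 26.7 in subclone 2. Its coactivator ABHD5 went the other way, with 7.67, 3.23 and 5.04 RPKM, or 0.421 times (0.320 to 0.550) and 0.657 times (0.521 to 0.828) the parent. G0S2, the inhibitor of PNPLA2 that is also among the PPAR targets, was the other gene more than 2-fold higher in both subclones. The most abundant gene of the list was MGLL, the last lipase of the chain, with 38.1, 49.4 and 54.6 RPKM.

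Beyond CPT1A, the carnitine shuttle had 5 genes with a mean of at least 1 RPKM, and 1 of them, CRAT, passed 2-fold, in subclone 2. CRAT, which makes short-chain acylcarnitines, had 8.79 RPKM for the parental line, 16.2 for subclone 1 and 18.4 for subclone 2, a fold of 1.84 (1.46 to 2.34) and 2.09 (1.67 to 2.64). CPT2, the partner of CPT1A at the inner membrane, had 5.80, 5.58 and 7.69 RPKM. The carnitine carrier SLC25A20 had 7.002, 7.05 and 8.20 RPKM, the carnitine transporter SLC22A5 2.50, 2.24 and 3.73, and the peroxisomal transferase CROT 2.67, 4.15 and 3.36. Of the 15 oxidation enzymes with a mean of at least 1 RPKM, 1 was more than 2-fold higher, ACADS in subclone 1, with 1.84, 4.37 and 2.74 RPKM (16, 39 and 25 reads). The median log2 ratio of these 15 was 0.07 in subclone 1 and 0.22 in subclone 2. The trifunctional protein genes HADHA and HADHB were, unlike CPT1A, lower in subclone 2 than in the parent, with 105 against 87.1 RPKM and 46.5 against 36.2 RPKM. ETFB was the most abundant, with a mean of 169 RPKM.

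Among the lipases and partners of LPL, 12 genes besides LPL itself, 9 were listed and 6 had a mean of at least 1 RPKM. Hepatic lipase (LIPC) and endothelial lipase (LIPG), both of which act on circulating lipoproteins, went opposite ways. LIPC had 14.1 RPKM in parent cells, 30.1 in subclone 1 and 32.7 in subclone 2, a fold of 2.14 (1.69 to 2.73) and 2.32 (1.84 to 2.95) close to that of ANGPTL4. LIPG had 2.80, 0.314 and 0.409 RPKM (52, 6 and 8 reads), or 0.112 times (0.0394 to 0.262) and 0.146 times (0.0600 to 0.310) the parent. SEL1L, needed for LPL to leave the endoplasmic reticulum, was the most abundant with 30.2, 31.9 and 33.1 RPKM. The LPL activators APOC2 and APOA5 were not listed. In the list of fatty acid uptake and activation, 9 of 12 genes had a mean of at least 1 RPKM, CD36 was the gene past 2-fold on the higher side and ACSL1 on the lower, and ACSL3 was the most abundant with 82.8, 63.4 and 66.0 RPKM.

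Because ANGPTL4 answers to low oxygen as well as to PPARs, 13 hypoxia-induced genes were read too. Of the 11 with a mean of at least 1 RPKM, 2 were at least 2-fold higher and 0 lower in each subclone than in the parent, where 4.9% and 5.33% of all genes were higher by that fold, and the median log2 ratio was 0.54 in subclone 1 and 0.26 in subclone 2. The counting interval lay above 1 for 9 of the 11 in subclone 1 and for 7 in subclone 2, against 20% and 22.8% of all genes with recovered reads. Between the subclones it lay below 1 for 4, against 8.43% of these genes. Such an interval is narrow for abundant genes, so that small ratios exclude 1. CA9, the carbonic anhydrase that marks hypoxic tumour cells, had 11.0 RPKM in the parental cells, 25.3 in subclone 1 and 24.9 in subclone 2, a fold of 2.30 (1.75 to 3.05) and 2.27 (1.73 to 3.00) much like that of ANGPTL4. The other, ANKRD37, had 3, 9 and 11 reads. With 0.716 RPKM in the parent, it passed the mean of 1 RPKM only through the subclones. The counting interval of its level in the parent, 0.148 to 2.09 RPKM, overlapped those of both subclones. PGK1, a glycolytic enzyme and the most abundant of the list, had 642, 725 and 709 RPKM. The part of oxygen supply or of PPAR activity in the levels of ANGPTL4 was not tested.

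ANGPTL4 is known to bind integrins of the beta 1 and beta 5 classes, and all 5 genes of that list had a mean of at least 1 RPKM. ITGA5, the fibronectin receptor's alpha subunit, was highest in subclone 1, with 39.99 RPKM for the parental line, 80.9 for subclone 1 and 57.2 for subclone 2, a fold over the parent of 2.02 (1.85 to 2.21) and 1.43 (1.31 to 1.57). ITGB1 had 288, 356 and 322 RPKM. RAC1, a GTPase that acts below integrins, was the most abundant with 302, 390 and 439 RPKM.

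**Figure D5:**
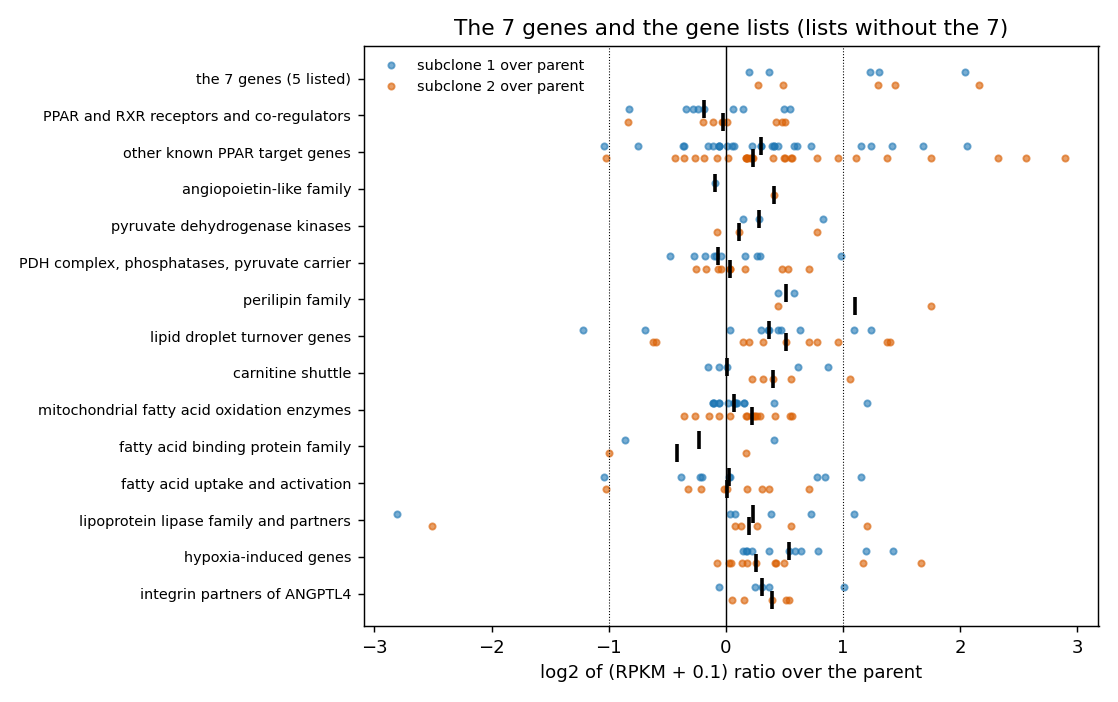
Log2 ratio over the parent of RPKM plus 0.1 for each gene with a mean of at least 1 RPKM, by list, with 1 point for each gene and subclone and a bar at the median of each list. The 7 genes, of which 5 are listed, are left out of the other lists, and the lists of cell type markers are not drawn. The medians of the lists drawn lie between -0.41 and 1.10.

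Markers of cell types other than hepatocytes were read beside these values, since PPARG, ANGPTL4 and perilipins are also genes of fat cells and macrophages. Of 5 adipocyte markers, 4 were listed and CIDEC, itself a PPAR target, made up most of their sum, which was 8.46 RPKM in parent cells, 10.3 in subclone 1 and 16.3 in subclone 2. FABP4, a defining marker of fat cells, was not listed, and ADIPOQ had at most 3 reads. Of 6 macrophage markers, 4 were listed and the sum of 75.6, 113 and 99.6 RPKM was nearly all CD68, while CSF1R and MRC1 were not listed. The 5 endothelial markers summed to 5.11, 11.9 and 7.61 RPKM, with CDH5 at 0, 1 and 0 reads, and PECAM1 was 2.95-fold above the parent in subclone 1 (1.99 to 4.49) and KDR 2.26-fold in subclone 2 (1.52 to 3.41). Of 6 fibroblast markers, 5 were listed, with a sum of 15.7, 31.1 and 24.3 RPKM. COL1A2 had at most 1 read and PDGFRB was not listed. LUM, with 48, 117 and 105 reads, and DCN, with 8, 47 and 30 reads, were higher in the subclones, whereas the collagen gene COL3A1 was lower in both, with 109, 56 and 12 reads. The part of CD68, of the hepatocyte, endothelial and fibroblast markers that differed between the lines in the levels of ANGPTL4, PDK4 and PPARA was not tested.

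The genes whose pattern over the 3 libraries was nearest to that of ANGPTL4, by the Euclidean distance between centred profiles of log2 (RPKM + 0.1), were TMEM81 (distance 0.0088), TNFRSF11A (0.0154), MMP24 (0.0428), CLIC3 (0.0434) and C2 (0.0482), the last 2 encoding a chloride channel protein and a complement component. MMP24, a membrane metalloproteinase, was also close to ANGPTL4 in level, with 24.4 RPKM in subclone 1 and 25.8 RPKM in subclone 2, from 195 reads in the parent and 488 and 529 in the subclones. TMEM81 had only 5, 13 and 14 reads, so that its place is imprecise. Of 11369 genes, 19 lay within 0.1. PPARA, at 0.106, had 22 genes nearer than itself, whereas PDK4 (0.683) had 1528, PLIN2 (0.684) 1532 and CPT1A (0.840) 2894.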

How the data were processed

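Messenger RNA of 3 cultured lines was sequenced, with 1 library each, from RNA taken with Trizol. The authors made the libraries with TruSeq and deposited 1 RPKM for every gene they listed, under its Entrez number and symbol, listing only genes above 0, and a gene not listed was set to 0. The submitters' processing notes name the build hg19. The aligner, the counting tool, the annotation and the use of strand are not given in the sources used here.

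Reads were recovered from the RPKM, since the values of a gene across the libraries stand in ratios of whole reads. The totals were those at which the low genes fell on whole lengths, which held for 78.5% to 81.2% of 400 low genes. Among candidate totals of the parent, the one kept put the most lengths within 10% of a GENCODE transcript. This held for 75.0% of the genes checked, against 46.3% at the next best candidate. A gene's length was accepted from 0.5 times the median to 1.5 times the longest of its transcripts, so some lengths in use match no transcript closely. The steps were run on simulated data in which each length was that of a GENCODE transcript. That run does not cover genes whose length in these data matches no transcript. Exact Poisson intervals (levels) and Clopper-Pearson intervals (ratios) at 95% cover counting error only, as reads of one molecule are not told apart. Groups of 1 library allow no test, so no p-value was computed.

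Log2 ratios used RPKM plus 0.1. The background was the 11370 genes whose RPKM averaged at least 1, and 116 of the 119 list genes among them were given whole reads. The 7 genes and the 19 lists were chosen with earlier results of these data known. Named were the 7 genes, the most abundant gene of each list and the 5 genes nearest ANGPTL4 in pattern. Also named were genes at least 2-fold different with an interval that excludes 1, and paralogs with a mean of at least 1 RPKM. Paralogs came from the angiopoietin-like, perilipin, fatty acid binding protein, pyruvate dehydrogenase kinase and carnitine shuttle lists. Other names (among them RXRA, RXRG, PPARGC1A, LPIN1, PPARD, HADHA, HADHB, ANKRD37, ITGB1, APOC2, APOA5 and single markers) were chosen after their values were seen, and some list genes are not reported here. All 175 list genes were matched by Entrez number in the RefSeq gene table. Gene places are from GENCODE v29 on GRCh38, which is not the build of the files, and promoters from RefSeq on GRCh38.p14. Alternatives were pseudocounts of 0.01 and 1, 5 rescalings, other filters and 1.5-fold. Python 3.11.15, numpy 2.4.6, pandas 2.3.3, scipy 1.17.1 and matplotlib 3.10.9 were used.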

Additional observations from a re-analysis of the deposited data

Results flagged for a closer look

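A rule picked 40 genes, each with a mean of at least 1 RPKM. They were the listed members, their paralogs and the genes of all lists past 2-fold whose counting interval excluded 1. Paralogs came from the angiopoietin-like, perilipin, fatty acid binding protein, pyruvate dehydrogenase kinase and carnitine shuttle lists, so PPARG and PPARD were not among them. Of the 40, 4 lay above the parent in one subclone and below it in the other. Between the subclones, the log2 ratio (subclone 2 over subclone 1) came to 0.51 for ANGPTL2, 0.46 for CPT2, -0.22 for PDK1 and 0.71 for SLC22A5, a carnitine transporter. None of these 4 differences was tested, because each line had 1 library. The counting interval of the fold between the subclones excluded 1 for ANGPTL2 (1.195 to 1.698), CPT2 (1.026 to 1.859) and SLC22A5 (1.072 to 2.621). For PDK1 it included 1 (0.555 to 1.316). For ANGPTL2 the counting interval excluded no difference from the parent in subclone 2 (log2 ratio 0.41) but not in subclone 1 (-0.10), and for the other 3 genes it included no difference from the parent in both subclones.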

How the results depend on the processing

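No paired analysis was possible because each line had 1 library, and no library could be left out. Of 105 values (15 log2 ratios of the 5 listed members under 7 alternatives), 104 stayed within the counting interval and 0 reversed. The exception was PDK4 in subclone 2 over the parent, 1.18 with a pseudocount of 1 (1.10 in subclone 1), since a larger pseudocount shrinks the ratio of a low gene. Over the alternatives, the log2 ratios over the parent ranged from 1.10 to 1.24 and from 1.23 to 1.36 for ANGPTL4 and from 1.04 to 1.35 and from 1.16 to 1.51 for PPARA and, more widely, from 1.10 to 2.26 and from 1.18 to 2.38 for PDK4, in subclone 1 and subclone 2. The counts of members past the threshold, 3 over the parent in each subclone and 0 between the subclones, were equal under all 8 alternatives.

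The background counts depended on the settings. With a pseudocount of 1, 347 genes passed 2-fold upward and 117 downward in subclone 1 against the parent, 380 and 150 in subclone 2, and 80 and 77 between the subclones. In the same order the counts were 1317 and 848, 1444 and 830, and 540 and 467 at 1.5-fold, 1523 and 884, 1553 and 941, and 842 and 902 with no filter, and 233 and 71, 253 and 93, and 43 and 46 where the filter was set at an average of 5 RPKM. Division by ACTB gave 328 lower genes in subclone 1, shifted all log2 ratios by -0.13 there and by 0.13 between the subclones, and took the share of higher genes among those past 2-fold from 72.9% to 57.8% and from 50.5% to 63.9%. Division by GAPDH shifted the ratios between the subclones by 0.12 and gave a share of 62.6%. The depth limits PDK4, with 7 reads in the parent, and the short FABP1 most.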
